A study of Zea mays with 18 samples.

Results

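The comparison described is that of chilled nights against warm nights in the elongation zone of maize leaf 4, measured as the level of every microRNA (miRNA) in the deposited table. The elongation zone is the stretch of a growing grass leaf above the dividing base, where cells have stopped dividing and lengthen. Its members are all the miRNA probe sets of the table, with probe sets that share all 6 group averages counted once: 228 probe sets of 28 families gave 147 distinct profiles, all of which entered the comparison. A profile is named by all the miRNAs that share it (miR390a/b-3p stands for miR390a-3p and miR390b-3p), since their levels were identical in the table. The difference was taken as the chilled average minus the control average. The elongation zone difference itself was not used to choose the members, but the table lists miRNAs selected by an ANOVA over all 6 groups.

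The plants were seedlings of the maize hybrid ADA313 (Zea mays). Control seedlings had days of 16 h at 25 °C and nights of 8 h at 20 °C, under 15000 lux and 70% relative humidity. For the chilled groups the night was at 4 °C, with nothing else altered, so all groups share the genotype, the light and the warm days. Each of the 2 elongation zone groups had 3 arrays labelled as biological replicates, out of 18 arrays in 6 groups that also cover the meristem and the mature zone. The labels do not give the length of the chilling, the age of the seedlings, the cutting of the zone or any pooling of seedlings. Total RNA (10 µg per sample) was tailed, ligated to biotin and hybridised to Affymetrix arrays.

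A plant miRNA is cut from a hairpin precursor by a DICER-LIKE enzyme, which releases a short duplex. One strand, the guide, is usually kept in an ARGONAUTE protein and directs the cleavage or repression of messenger RNAs with a matching site, while the opposite strand is mostly degraded. The 5p and 3p in a name say which arm of the hairpin the strand comes from. In growing leaves the conserved families set cell division, polarity, auxin response and developmental phase through transcription factors, and others adjust the supply of copper, sulfate and phosphate.

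The table holds a single average per group, in log2 units of array signal, and no value of a single array. Whether the arrays of both groups overlap for a given miRNA therefore cannot be given, and the error of each difference was worked out from the p-value of the ANOVA that the authors deposited. The labels call the arrays biological replicates. The p-values rest on 1 spread per profile, pooled over the arrays of all 6 groups, and not on the spread of the elongation zone arrays alone. A difference of 1 is a 2-fold difference in signal. Signal depends on the probes too, so signals of different miRNAs cannot be ranked as amounts. Averages under log2 2 were treated as background. The deposited ANOVA p-values reached 0.040982 at most, so only miRNAs that differ somewhere among the 6 groups are listed. In bulk tissue, fewer cells of a type and less RNA per cell cannot be told apart.

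The labels were looked at with the guide strands of miR396, which in growing leaves are low in dividing and higher in older tissue. Along the control leaf, from meristem to mature zone, the miR396c/d averages were 3.70, 11.31 and 11.80. Along the chilled leaf they were 6.70, 11.26 and 11.41. Both averages of the elongation zone stood far above those of the meristem and close to those of the mature zone, which this miRNA does not separate from it. The miR396a/b-5p averages were 1.36, 2.48 and 2.05 in control and 1.31, 2.94 and 1.93 in chilled leaves. Those of the profile of miR396h and miR396g-5p were 1.15, 1.97 and 1.45, and 1.25, 2.54 and 1.35. Both guide profiles were lowest in the meristem but lower in the mature than in the elongation zone. The miR396e/f-5p averages were at background in all 6 groups.

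Most miRNA averages in the elongation zone differed by less than 1 between chilled and warm nights. The averages ran from 0.92 to 12.52 in control and from 0.91 to 12.64 in chilled leaves. Their order over the 147 profiles was nearly the same (Spearman's rho 0.97, a description across profiles on the same arrays). So wide a range of averages raises this rho by itself, so it says little about chilling. Of the profiles, 77 were higher, 69 lower and 1 equal under chilling. The median difference was 0.04, with quartiles of -0.215 and 0.315, and 9 profiles differed by 1 or more. With the median of the profiles subtracted from each group, every difference moves by -0.34 and 35 are higher and 112 lower, so the counts of higher and lower members given for lists and families hold for the averages as deposited. Both averages were at background in 48 profiles. The 6 profiles that passed from background to above it under chilling had no counterpart, since 0 went the other way.

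The 22 profiles with a control average of 10 or more had the highest signals of the zone, and 19 of them are guide strands. Their differences lay between -0.80 and 0.58. The profile of miR156c and 9 miR156 5p members, which repress SPL factors and so hold a plant in its juvenile phase, stood at 12.52 in control and 12.64 in chilled leaves. The miR164a/b/c/d/g-5p average, of a family that targets NAC factors at organ boundaries, was 11.94 and 12.14. The miR171d/e/i/j-3p average, of a family that targets GRAS factors, was 12.09 and 11.94. None of the 22 passed the adjusted threshold under limma and 1 had an unadjusted p under 0.05. The 95% interval of the difference lay inside a 2-fold change in either direction for 10 of these 22. It did so for 21 of the 99 profiles above background in at least 1 group, and for 66 of all 147. Of the other 81, the interval of 63 held both 0 and a 2-fold change, so that these could not be told apart with 3 arrays per group, and that of 18 did not hold 0.

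**Figure D1:**
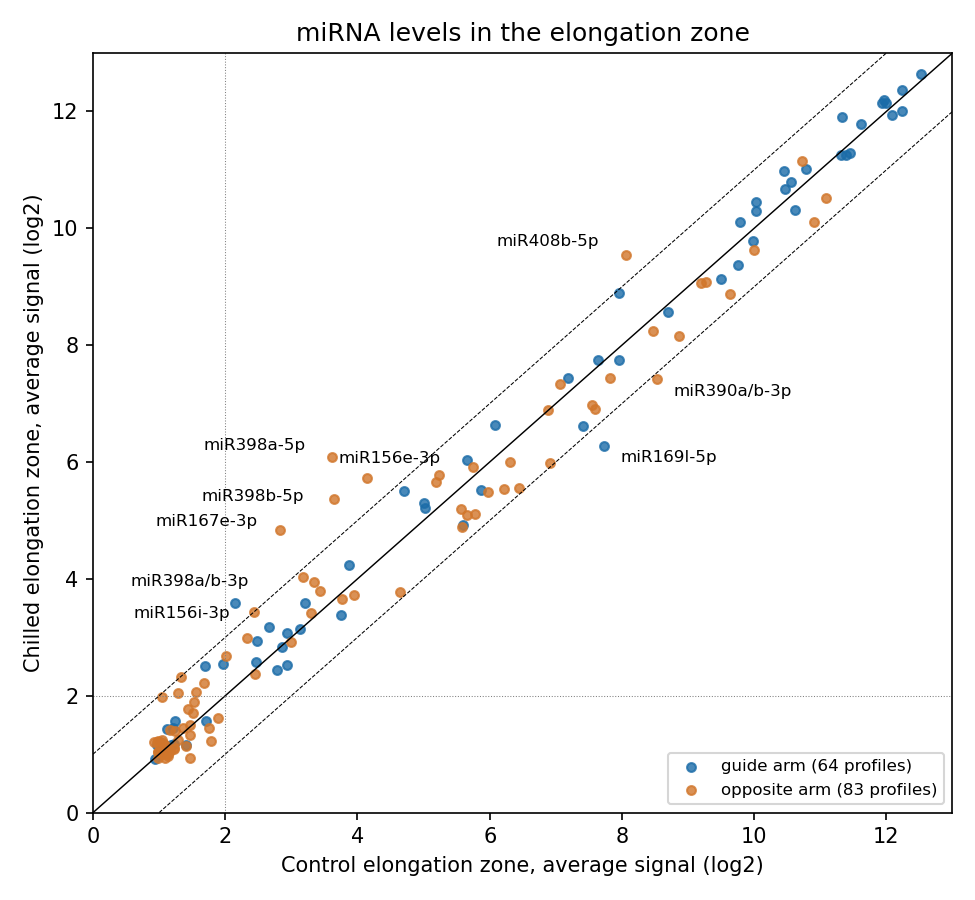
Average log2 signal of each of the 147 miRNA profiles in the control (x axis) and the chilled (y axis) elongation zone, with 64 guide strands in blue and 83 opposite strands in orange. The solid line marks equal levels, the dashed lines a difference of 1, and the dotted lines the background level of 2; most points lie between the dashed lines, and miR398a-5p at 3.62 and 6.09 lies farthest above.

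By limma's moderated test 4 of 147 profiles (2.72%) passed an adjusted p of 0.05, 3 higher (2.04%) and 1 lower (0.68%) in the chilled elongation zone. At an unadjusted p under 0.05 there were 27 (18.4%), 19 higher (12.9%) and 8 lower (5.44%). These are shares of the listed miRNAs, which were selected in part by the same averages, and not rates over all miRNAs of the array.

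The fall was that of miR169l-5p, a guide strand that acts on messengers of NF-YA factors, which take part in drought and nitrogen responses. Its average was 7.73 in control and 6.28 in chilled leaves, a difference of -1.45 (SE 0.21, 95% interval -1.91 to -0.99, adjusted p = 0.00142 by limma). It passed under all 12 alternative treatments of the data, with differences from -1.79 to -1.43. The averages were 7.36 and 5.42 in the meristem and 7.64 and 6.37 in the mature zone, so chilled leaves had less of it in each zone.

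Of the 3 rises that passed, the largest was that of miR167e-3p, the strand opposite to the miR167 guide, whose family represses auxin response factors. It stood at 2.83 in control and 4.84 in chilled leaves (difference 2.01, SE 0.42, 95% interval 1.11 to 2.91, adjusted p = 0.0216 by limma). With quantile normalization the difference was 1.03 (adjusted p = 0.249 by limma), which ends the call, and it passed under 10 of 12 alternatives. The chilled elongation zone had the highest of its 6 averages, against 1.09 and 1.19 in the meristem and 3.00 and 2.82 in the mature zone.

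The other rises were of strands with low signal, and they passed under fewer alternatives, 7 of 12 for the first and 6 of 12 for the second. The miR156i-3p average, a strand opposite to the SPL-repressing guide, was 2.44 in control and 3.44 in chilled leaves (1.00, SE 0.25, adjusted p = 0.0489 by limma). The profile shared by miR396h and miR396g-5p, guide strands against growth-regulating factors, rose from 1.97, which is at background, to 2.54 (0.57, SE 0.13, adjusted p = 0.0357 by limma). With quantile normalization these differences were 0.65 and 0.13 (adjusted p = 0.203 and 0.758 by limma), so that none of the 3 rises passed. Under that scaling miR169l-5p alone was called, at -1.53.

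**Figure D2:**
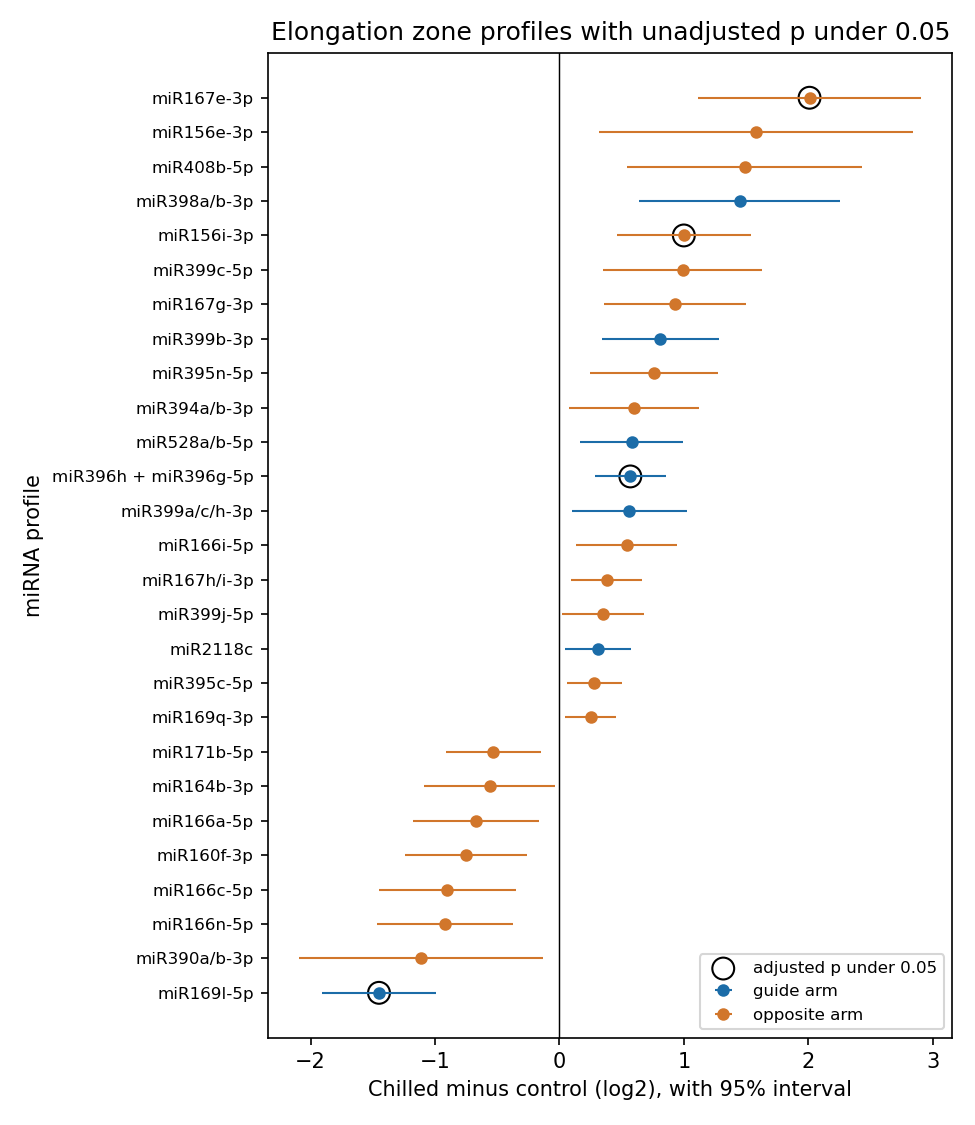
Chilled minus control difference in log2 signal, with its 95% interval, for the 27 elongation zone profiles with an unadjusted p under 0.05, sorted by size; blue marks guide strands and orange opposite strands. Black circles mark the 4 profiles past the adjusted threshold, of which miR167e-3p is highest at 2.01 and miR169l-5p lowest at -1.45.

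The miRNAs of copper proteins had the highest median of the target lists. The guide strands of these families are made when copper is short and repress copper-holding proteins that the cell can spare. Of the 7 copper profiles 6 were higher in the chilled elongation zone and 1 was lower, with a median difference of 1.45, against 0.04 over all 147 profiles. The 3 guide profiles among them had a median of 0.93 and the 4 opposite strands 1.605. None of the 7 passed the adjusted threshold under limma. All 3 with an unadjusted p under 0.05 were higher, where 12.9% of all 147 profiles were. The list holds 3 profiles of miR398 and 2 of miR408, in part strands of the same hairpins, so its profiles are not independent. Over the scalings tried the median of the 7 was between 0.84 and 1.47.

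Within this list miR398a/b-3p, the guide strand against copper/zinc superoxide dismutases, stood at 2.14 in control and 3.59 in chilled leaves (1.45, SE 0.38, adjusted p = 0.0523 by limma). Its opposite strands had larger differences with wide errors. The miR398a-5p averages were 3.62 and 6.09 (2.47, SE 1.30, 95% interval -0.32 to 5.26), and those of miR398b-5p were 3.65 and 5.37 (1.72, SE 1.06). All 3 profiles of miR398 were therefore higher under chilling without passing the test. In the meristem they were higher too, by 1.26 for miR398a/b-3p, 2.96 for miR398a-5p and 2.07 for miR398b-5p. In the mature zone the differences were -0.03, 5.54 and 0.16 in that order.

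The guide of miR408 represses plantacyanins and laccases. Its opposite strand miR408b-5p had averages of 8.06 and 9.55 (1.49, SE 0.44, adjusted p = 0.0660 by limma). The guide profile of miR408a and miR408b-3p had 7.96 and 8.89 (0.93, SE 0.69, adjusted p = 0.512 by limma). The miR528a/b-5p guide, found in grasses and directed at copper proteins such as ascorbate oxidase, had averages of 11.33 and 11.91 (0.58, SE 0.19, adjusted p = 0.0972 by limma). The exception was miR397a-3p, opposite to a laccase-repressing guide, which was at background in both groups at 1.10 and 1.08. In the meristem the differences were 1.65 for miR408b-5p, 1.36 for the miR408 guide, 0.59 for miR528a/b-5p and -0.02 for miR397a-3p. In the mature zone they were 1.92, 2.08, 0.87 and -0.02 in that order.

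**Figure D3:**
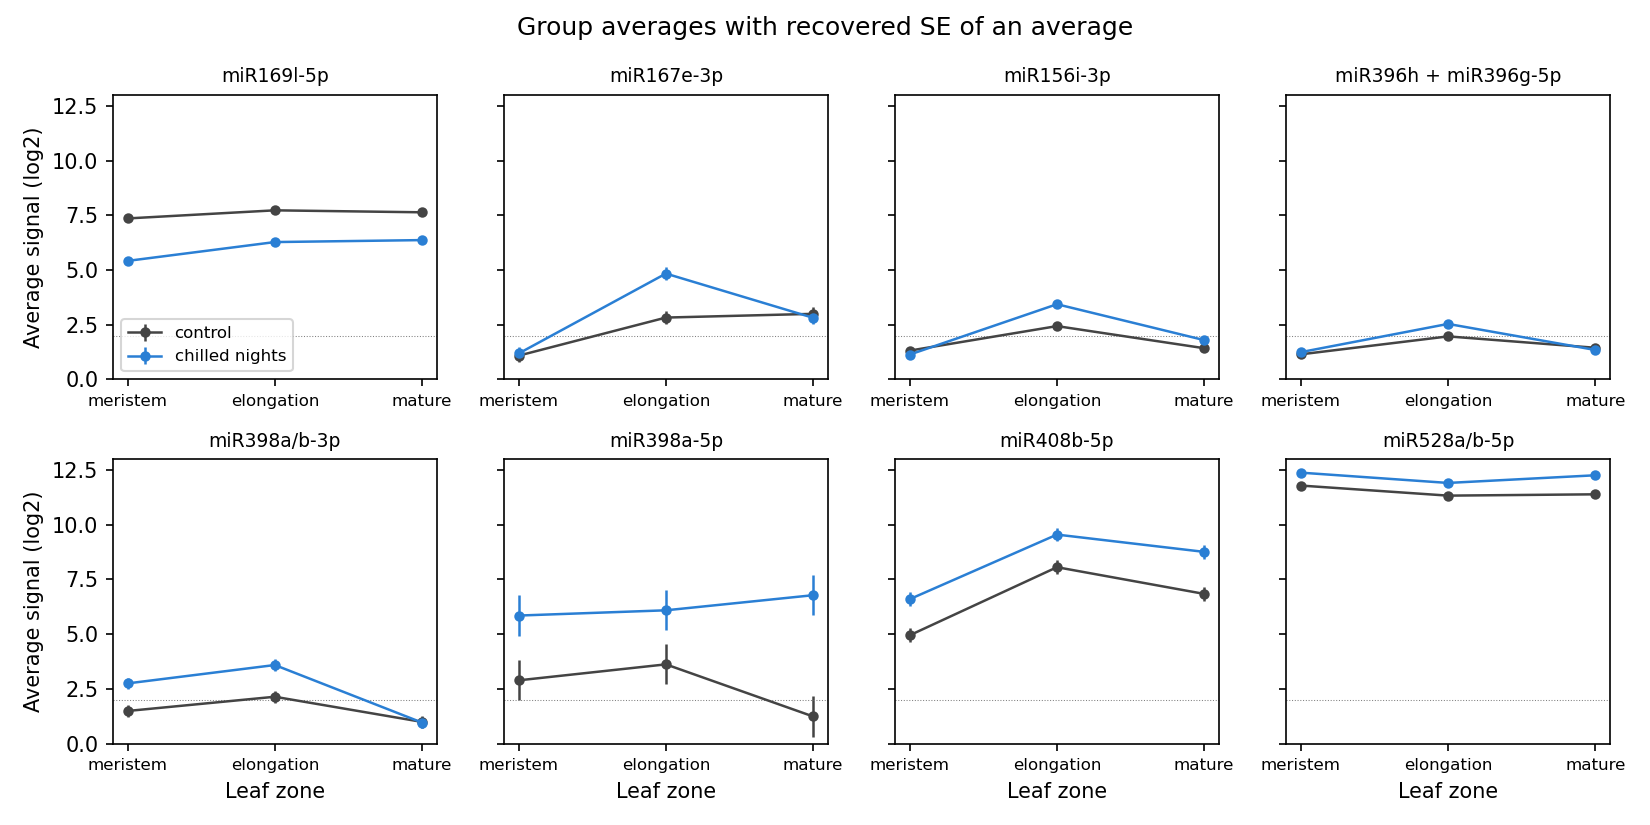
Average log2 signal in the 3 leaf zones of control (grey) and chilled (blue) seedlings for the 4 called profiles of the elongation zone (upper row) and 4 copper profiles (lower row); bars are the recovered SE of an average and the dotted line is the background level of 2. The chilled elongation zone average of miR167e-3p, 4.84, stands above all its other averages, and miR528a/b-5p is high throughout.

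Of the 20 sulfate and phosphate profiles 10 were higher and 10 lower, with a median of 0.02. None passed the adjusted threshold under limma, while 6 of the 20 had an unadjusted p under 0.05, each of them higher under chilling, against 12.9% of all 147 profiles. The guide strands of miR399 repress PHO2, which restrains phosphate uptake. Among them miR399a/c/h-3p stood at 6.08 and 6.64 (0.56, SE 0.22, adjusted p = 0.140 by limma), miR399b-3p at 1.70 and 2.51 (0.81, SE 0.22, adjusted p = 0.0597 by limma) and miR399d-3p at 4.70 and 5.5 (0.80, SE 0.43). Of the 5 miR399 guide profiles 4 were higher, under each scaling but the median of the profiles, with which 3 were.

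The guide strands of miR395 repress ATP sulfurylases and a sulfate transporter, and all 3 profiles were lower with each scaling tried, none with an unadjusted p under 0.05. The profile of 11 identical miR395 3p members stood at 10.62 and 10.31 (-0.31, SE 0.35), miR395c/l/m-3p at 7.41 and 6.62 (-0.79, SE 0.78) and miR395o-3p at 3.75 and 3.38 (-0.37, SE 0.34). Of the 5 opposite strands of the family 3 were higher and 2 lower, the latter being miR395i-5p at 6.31 and 6.0 (-0.31, SE 1.08) and miR395l-5p at background. The miR395n-5p averages were 1.29 and 2.05 (0.76, SE 0.24, adjusted p = 0.0815 by limma), those of miR395b-5p 3.18 and 4.04 (0.86, SE 0.69), and those of miR395c-5p 0.92 and 1.2, both at background. The opposite strands miR399c-5p (1.33 and 2.32, adjusted p = 0.0678 by limma) and miR399j-5p (1.43 and 1.78) started from background too.

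The leaf polarity list, which is the miR166 family against HD-ZIP III factors of the upper leaf side, had the lowest median at -0.38. Its strands divided by arm. The 4 profiles of the 3p guide stood at 9.78 to 11.39 in control leaves and differed by -0.13 to 0.42. The most shared of them, with 8 members, had averages of 9.78 and 10.10 (0.32, SE 0.57), miR166a-3p had 10.03 and 10.45, miR166l/m-3p had 10.03 and 10.30, and miR166j/k/n-3p had 11.39 and 11.26. With the median of the profiles subtracted, 3 of these 4 were lower.

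Of the 10 profiles of the 5p strand above background in at least 1 group 8 were lower under chilling, by -0.38 to -0.92, and these 8 were so with each scaling tried. The 2 higher ones were miR166j-5p, at 2.01 and 2.68 (0.67, SE 0.58), and miR166i-5p, at 1.68 and 2.22 with an unadjusted p of 0.0128. The miR166n-5p averages were 6.91 and 5.99 (-0.92, SE 0.25, adjusted p = 0.0602 by limma), those of miR166c-5p 6.45 and 5.55 (-0.90, SE 0.25, adjusted p = 0.0602 by limma) and those of miR166a-5p 6.21 and 5.54 (-0.67, SE 0.24, adjusted p = 0.107 by limma). The miR166b/d-5p averages were 10.91 and 10.11 (-0.80, SE 0.48). None passed the adjusted threshold under limma, and 3 of the 11 profiles of this arm were lower at an unadjusted p under 0.05, against 5.44% of all 147 profiles. The members share much of their sequence, so they are not independent measurements.

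Of the 19 auxin profiles 10 were higher and 9 lower, with a median of 0.01, and miR167e-3p was the only call. The guide strands of miR167, miR390 and miR393 stood at 7.19 or more and differed by -0.17 to 0.53, with 0 of 5 at an unadjusted p under 0.05. The miR167e/f/g/h/i/j-5p guide, which shares a hairpin with miR167e-3p, stood at 10.45 and 10.98 (0.53, SE 0.33, adjusted p = 0.416 by limma). Of the other 5 profiles of miR167 3p strands 4 were higher, and miR167d-3p, at 7.82 and 7.43 (-0.39, SE 0.65), was lower. The miR167g-3p strand had 1.05 and 1.98 (0.93, SE 0.27, adjusted p = 0.0602 by limma), a chilled average still at background, and miR167h/i-3p had 1.52 and 1.90, which is at background in both groups.

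The miR390a/b-3p strand had the second lowest difference of all profiles at 8.53 and 7.42 (-1.11, SE 0.46, adjusted p = 0.171 by limma). Its guide, miR390a/b-5p, which starts the cutting of TAS3 transcripts into small RNAs against auxin response factors, stood at 11.45 and 11.28. Of the miR160 family the table has 3p strands only, opposite to a guide against auxin response factors, and 4 of 5 were lower. Among these miR160f-3p had averages of 9.63 and 8.88 (-0.75, SE 0.23, adjusted p = 0.0678 by limma) and miR160d-3p 5.58 and 4.89 (-0.69, SE 0.33, adjusted p = 0.269 by limma).

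The growth and leaf form list is the longest, with 40 profiles, of which 21 were higher, 18 lower and 1 equal, and its median was 0.03. Its call is the profile of miR396h and miR396g-5p named above. The miR396c/d guide stood at 11.31 and 11.26 (-0.05, SE 0.59, 95% interval -1.32 to 1.22). Other guides of the family were miR396a/b-5p at 2.48 and 2.94 (0.46, SE 0.28) and miR396e/f-5p at 1.24 and 1.57, at background. The miR319a/b/c/d-3p guide against TCP factors, which limit leaf cell division, had averages of 5.59 and 4.93 (-0.66, SE 0.73, adjusted p = 0.723 by limma). Of the 8 guide profiles of miR171, 3 were higher and 5 lower, and of the 4 of miR159, whose targets are GAMYB factors, 3 were higher and 1 lower. The opposite strands miR164b-3p (1.78 and 1.22) and miR171b-5p (1.47 and 0.94) were lower at an unadjusted p under 0.05 but at background in both groups.

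In the phase change list 7 of 13 profiles were higher and 6 lower, with a median of 0.12. Its 6 guide profiles, of miR156, miR529 and miR172, differed by -0.42 to 0.30, and 0 had an unadjusted p under 0.05. The opposite strand miR156e-3p stood at 4.15 in control and 5.73 in chilled leaves (1.58, SE 0.59, adjusted p = 0.131 by limma). Together with the called miR156i-3p this made 2 of the 5 opposite strands of miR156, while the guide of both hairpins, in the profile of miR156c, differed by 0.12.

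Of the 12 NF-YA profiles 7 were higher and 5 lower, with a median of 0.075. The other 3 guide profiles of miR169 showed no such fall as miR169l-5p. The miR169d averages were 2.86 and 2.84, those of miR169e 2.46 and 2.58, and those of miR169m/n/q-5p 3.21 and 3.59 (0.38, SE 0.27). All 3 lay close to the background level of 2 in control leaves. A like fall would have taken them under it, so they could hardly have shown one. The opposite strand of the called miRNA, miR169l-3p, had averages of 3.29 and 3.41 (0.12, SE 0.61). The miR169m-3p averages were 4.64 and 3.78 (-0.86, SE 0.43, adjusted p = 0.308 by limma), and miR169q-3p, at 0.96 and 1.21, was at background.

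The small RNA machinery list, of families whose guides act against DICER-LIKE 1 and ARGONAUTE 1, had 4 profiles with 1 higher and 3 lower. Only 1 of the 4 is a guide, miR162-3p at 2.78 and 2.44, and miR168 has opposite strands only. Of the list 0 had an unadjusted p under 0.05 or passed the adjusted threshold under limma. Its member among the larger differences was the opposite strand miR168b-3p, at 8.87 and 8.16 (-0.71, SE 0.53). Of the 14 profiles of families that trigger phased small RNAs 12 were at background in both groups, miR2118c among them at 1.12 and 1.43. These 12 included all 10 guide profiles of the list. In the list of the remaining families miR394a/b-3p, opposite to a guide against an F-box protein, stood at 3.34 and 3.94 (0.60, SE 0.24, adjusted p = 0.167 by limma).

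**Figure D4:**
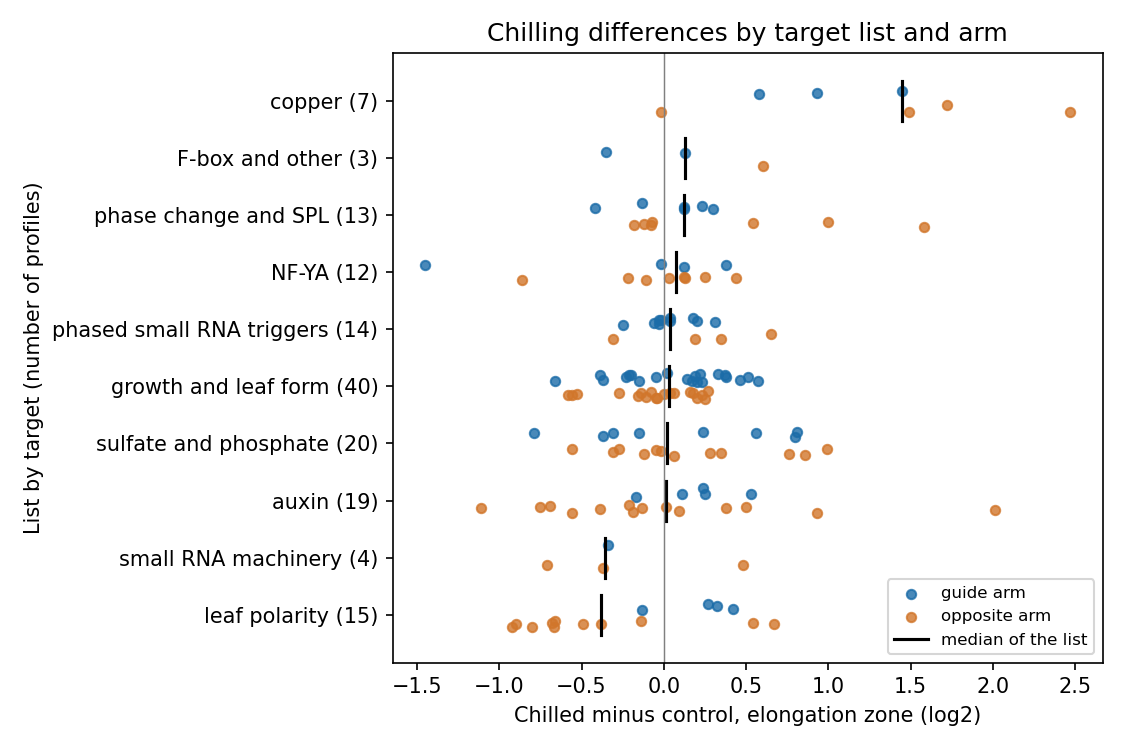
Chilled minus control difference in the elongation zone for all 147 profiles, grouped by the targets of their family; blue points are guide strands, orange points opposite strands, and black bars the median of a list. The copper list has the highest median, 1.45, and in the leaf polarity list the blue points lie between -0.13 and 0.42 while most orange points lie below 0.

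Guide and opposite strands were set side by side for the whole zone. Over the 51 guide profiles above background in at least 1 group the median difference was 0.14, and over the 48 such opposite strands it was -0.095. Of the 27 profiles with an unadjusted p under 0.05, 7 were guides (6 higher, 1 lower) and 20 were opposite strands (13 higher, 7 lower), out of 64 and 83 profiles. The 19 higher ones were mostly low, with a median control average of 1.70, 11 of them at background in control leaves and 6 in both groups. The 8 lower ones had a median control average of 6.68.

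Both strands of a hairpin were above background in 34 pairs of profiles. Their differences had the same sign in 15 pairs and unlike signs in 19, and the opposite strand had the larger difference in 29. These counts take no account of the error of each difference, which is not the same for both strands. In the miR398 and miR408 pairs both strands were higher. In the pairs of miR166a, miR166b/d, miR166c, miR166g, miR166h and miR166m the 3p guide was higher and the 5p strand lower, for example 0.42 and -0.67 for miR166a. With the median of the profiles subtracted, the 3p guide stayed higher in the miR166a pair only. In the miR166k and miR166n pairs both strands were lower as deposited, in that of miR166i both were higher, and in that of miR166j only the 5p strand was higher. A guide profile shared by several hairpins enters more than 1 pair, so the pairs are not independent.

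Across the 6 groups the chilled elongation zone was the most frequent place of the highest average. Of the 99 profiles above background in it or in its control, 34 had their highest average there, 20 in the control elongation zone, 21 in the control meristem, 15 in the chilled meristem, 7 in the chilled and 2 in the control mature zone. For 0 of the 99 was it the lowest of the 6. These counts depend on the choice of profiles detected in the elongation zone, and what else lies behind them was not tested. They hold for the averages as deposited. With chilling the median of those averages over the profiles moved by 0.34 in the elongation zone, -0.1 in the meristem and -0.13 in the mature zone. Over all 147 profiles the chilled elongation zone was highest for 43 and lowest for 6.

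Whether chilling acted on the elongation zone as on the other zones was tested with the difference of the chilling differences, which share no group. The labels do not say whether the zones of a treatment came from the same seedlings, and the test treats their arrays as independent. Against the meristem 0 of 147 profiles (0%) passed the adjusted threshold under limma, and 16 (10.9%) had an unadjusted p under 0.05. The nearest was miR396c/d, which differed by -0.05 in the elongation zone and 3.00 in the meristem (difference of differences -3.05, SE 0.84, adjusted p = 0.270 by limma). The called miR167e-3p differed by 2.01 in the elongation zone and 0.10 in the meristem (1.91, SE 0.59, adjusted p = 0.270 by limma). Over the 99 profiles above background, chilling differences of both zones had a Spearman's rho of 0.37 and the same sign in 56, as a description across profiles of the same arrays.

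Against the mature zone 9 profiles (6.12%) passed, 8 with a higher (5.44%) and 1 with a lower value (0.68%) in the elongation zone. The called miR167e-3p differed by 2.01 in the elongation zone and -0.18 in the mature zone (2.19, SE 0.59, adjusted p = 0.0448 by limma). After quantile normalization that value was 0.16 (adjusted p = 0.995 by limma). The miR399d-3p averages were 4.70 and 5.5 in the elongation zone but 3.83 and 1.46 in the mature zone (3.17, SE 0.60, adjusted p = 0.00914 by limma). It was among 14 profiles (9.52%) that fell in the mature zone by limma. The lower one was miR160f-3p, at 9.63 and 8.88 in the elongation zone and 7.01 and 7.62 in the mature zone (-1.36, SE 0.32, adjusted p = 0.0265 by limma). After quantile normalization 23 profiles passed, 7 higher and 16 lower, with 4 of the 9 among them. With the median of all probe sets subtracted the between-zone values of miR167e-3p, miR167g-3p, miR399b-3p and the miR396h profile turned negative, and 121 profiles passed as lower. For miR169l-5p and miR408b-5p the difference between these zones did not pass (-0.18, SE 0.30, and -0.43, SE 0.62). Over the 99 profiles Spearman's rho with the mature zone was 0.33, with the same sign in 54.

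**Figure D5:**
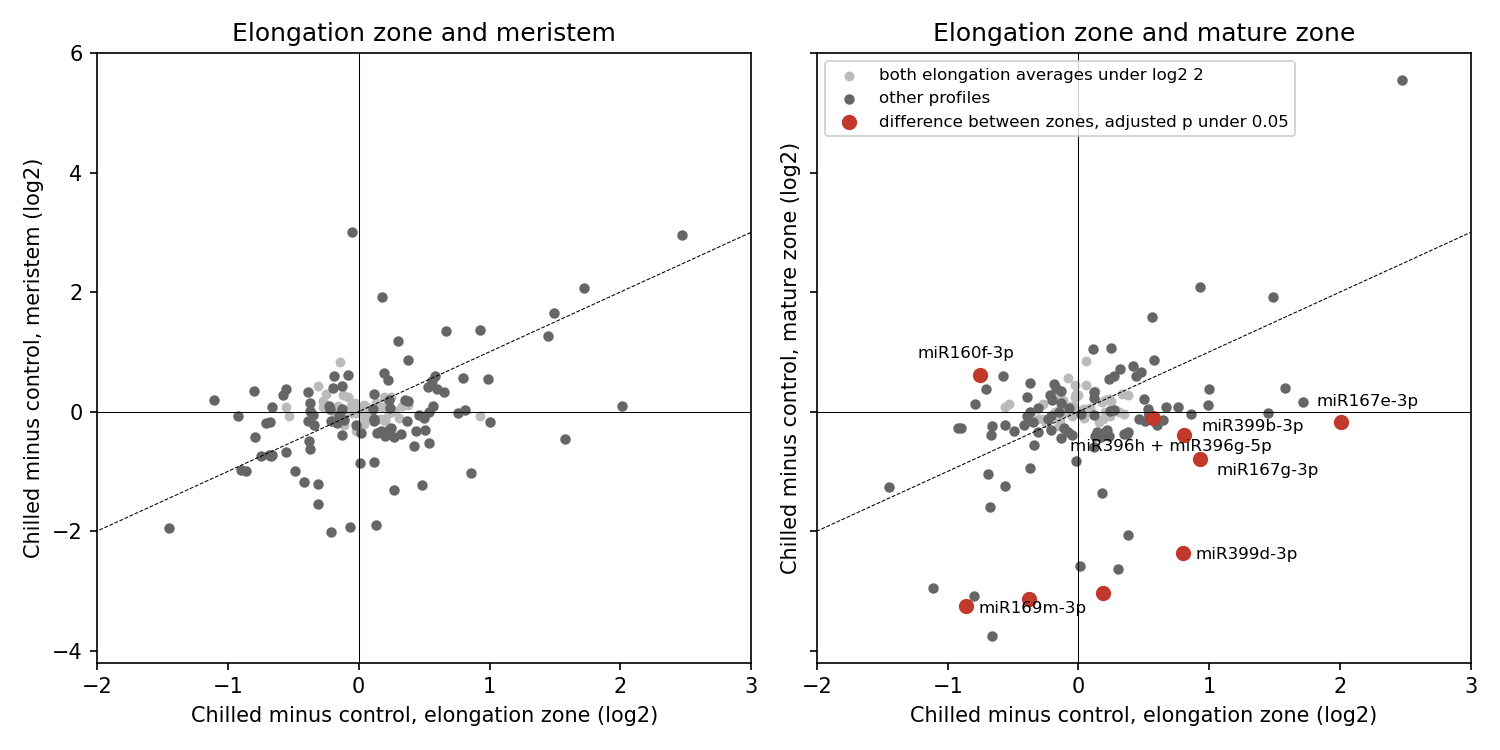
Chilled minus control difference in the elongation zone (x axis) against that in the meristem (left) and the mature zone (right), in log2 units, for 147 profiles; light grey points had both elongation zone averages under 2 and the dashed line marks equal differences. Red points mark the 9 profiles whose chilling difference in the elongation zone differed from that in the mature zone, 7 of them labelled; 0 did so against the meristem.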

How the data were processed

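The authors deposited 1 table that gives, per the file headers, a bi-weight average signal in log2 units for each of 6 groups, with the p-value and FDR p-value from their ANOVA. Single arrays were not analysed here. The submitters' processing notes name Affymetrix Expression Console; the sources used here do not give its version, background correction or normalization. F was obtained from the ANOVA p (5 and 12 degrees of freedom) for each of the 147 profiles, and the residual variance from F and the spread of the averages, each over 3 arrays. An ordinary ANOVA with equal spread and independent arrays is assumed, and bi-weight averages are treated as means. The replicate numbers recur in each zone. The alternative F on 5 and 10 degrees of freedom is that of an ANOVA with the replicate number as a further term. Variances were moderated by squeezeVar of limma 3.58.1 in R 4.3.3 (prior degrees of freedom 1.78, total 13.8). Contrasts were tested two-sided, with Benjamini-Hochberg adjustment over 147 profiles at a threshold of 0.05. Since the listed miRNAs were selected by that ANOVA, which also gave the errors, the p-values and their adjustment are approximate. The steps were run on simulated arrays with planted differences larger than most of those found here. These arrays were drawn as independent and with equal spread, so the run did not test those assumptions. A planned fit to single arrays could not be made. Of 157 miRNA genes, 150 matched RefSeq (Zm-B73-REFERENCE-NAM-5.0). Guide arms are background knowledge, and names without an arm were taken as guides. The rule named profiles with an unadjusted p under 0.05, the 10 largest rises and falls with an average of 3 or more, the guides of the copper list, miR396, miR319, miR169, miR166 and miR395, and profiles past the between-zone threshold among the 10 largest differences. Other profiles were named after their values were seen. The members and lists were chosen with earlier results of these data known. The precision is limited by the number of arrays.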

Additional observations from a re-analysis of the deposited data

Results flagged for a closer look

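In 7 named profiles the chilling difference in the elongation zone differed from that in the mature zone by limma's test of the difference itself (difference of differences in log2 units, elongation minus mature). It was 3.17 for miR399d-3p, 2.4 for miR169m-3p, 2.19 for miR167e-3p, 1.72 for miR167g-3p, 1.2 for miR399b-3p, 0.67 for the profile of miR396h and miR396g-5p, and -1.36 for miR160f-3p. With the median of all probe sets subtracted, 4 of these turned: miR167e-3p (-0.19), miR167g-3p (-0.66), the miR396h profile (-1.72) and miR399b-3p (-1.18). In miR399d-3p and miR169m-3p the mature zone fell by itself (adjusted p = 0.00136 and 0.000182 by limma), while neither passed in the elongation zone. In the profile of miR396h and miR396g-5p and in miR399b-3p and miR167g-3p at least 1 elongation zone average was at background.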

How the results depend on the processing

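No paired analysis was possible because the table holds group averages only, and leaving out single replicates was not run for the same reason. Of the chilling calls in the elongation zone, 4 as reported, 2 were left with all probe sets kept, 1 with quantile normalization, 1 with the recovered SD times 1.2, and 2 with a filter on low signal. There were 27 with median subtraction (1 higher, 26 lower), 11 with a trended robust prior, 13 with F on 5 and 10 degrees of freedom, 9 with joint adjustment over 3 zones, and 7 by an unadjusted p with a 2-fold minimum. Between elongation zone and meristem, 0 as reported, 5 passed with median subtraction and 6 by the unadjusted p with a 2-fold minimum. Between elongation and mature zone, 9 as reported, 5 passed with all probe sets, 23 with quantile normalization, 26 with median subtraction, 5 with the trended prior, 15 with F on 5 and 10 degrees of freedom, 3 with the SD times 1.2, 5 with averages under 2 set to 2, and 17 by the unadjusted p with a 2-fold minimum. With the median of all probe sets subtracted, chosen after seeing the data, 121 passed, all lower, as this median moves by -2.405 in the mature zone and -0.02 in the elongation zone.

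Median subtraction turned the differences of the 8-member miR166 3p profile (-0.02), miR166l/m-3p (-0.07), miR169e (-0.22), miR169q-3p (-0.09), miR2118c (-0.03), miR395c-5p (-0.06) and miR396e/f-5p (-0.01). Quantile normalization turned miR169e (-0.16), miR169m/n/q-5p (-0.02) and miR396c/d (0.05). Subtracting the median of all probe sets turned the between-zone values of miR167e-3p (-0.19), miR167g-3p (-0.66), the profile of miR396h and miR396g-5p (-1.72) and miR399b-3p (-1.18). The causes were not tested beyond the shifts that the scalings themselves make. Of the other values of named differences in the elongation zone under these alternatives, 531 kept their direction and side of the threshold, 37 came to pass it and 13 no longer passed it.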
